A study of Mus musculus with 8 samples.

Results

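Semaphorins, plexins, Slits, Robos, netrins and Unc5 receptors form the guidance families studied here, and 45 of the 18194 genes on the array belong to them. Members were taken by gene symbol, Sema3 to Sema7, Plxna to Plxnd, Slit1 to Slit3, Robo1 to Robo4, Ntn1 to Ntn5 and Unc5a to Unc5d, from probe sets that name 1 gene, and each gene was read from the brightest of its probe sets on average over all arrays. They comprise 7 class 3 semaphorins, 13 transmembrane and GPI-linked semaphorins, 10 plexin symbols (1 of them, Plxna4os1, an antisense RNA of Plxna4), 3 Slits, 4 Robos, 4 netrins and 4 Unc5 receptors.

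RNA of E9.5 mouse yolk sac, the extraembryonic membrane in which the first blood vessels and blood cells form, was measured on 8 single-channel arrays in 2 sets. The first set held 2 EC-N1ICD arrays (Tie2 Tg/0; ROSA +/N1ICD) and 2 wild type arrays (Tie2 0/0; ROSA +/+), all of C57BL6 strain. The second held 2 EC-Rbpj-KO arrays (Tie2-Cre; Rbpj flox/flox) and 2 arrays that are called wild type with no genotype given, all of mixed strain. In EC-N1ICD embryos the Cre recombinase switches on the intracellular domain of Notch1, an active form of the receptor, and in EC-Rbpj-KO embryos it deletes part of Rbpj, the DNA-binding partner through which Notch acts on transcription. Tie2-Cre is active in endothelial and hematopoietic lineages, whereas the arrays measured yolk sac tissue with all its cells, so a value below is that of the tissue. In such bulk samples, more cells of a type and more RNA per cell cannot be told apart. The comparison asks how guidance genes differ when Notch signaling in these lineages is raised or removed, each mutant being set against the wild type of its own set.

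Guidance genes were named for steering axons and also pattern blood vessels. Semaphorins are ligands of plexins, which act on small GTPases and the cytoskeleton, and most secreted class 3 semaphorins need the neuropilins Nrp1 or Nrp2 as co-receptors. Slits are secreted ligands of Robo receptors, and netrins are laminin-related secreted proteins bound by Dcc, neogenin and the Unc5 family. In endothelium, Plxnd1 with its ligand Sema3e, Unc5b and Robo4 are the members best known for a role in vessel growth.

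Of the members, 27 had a mean signal above the 40th percentile of all genes (the lowest mean signal kept was 68) and were tested with limma among 10913 genes, and 18 lay below it. Signals of those 18 ran from 9 to 107. For 9 of them, Sema3c, Sema3d, Sema3e, Ntn1, Ntn3, Plxna4os1, Robo2, Robo3 and Unc5d, both arrays of every group lay under the array median, which ran from 38 to 51 over all probe sets. The other 9 were Sema3a, Sema3g, Sema4f, Sema5b, Ntn4, Ntn5, Plxnb3, Robo1 and Slit1. Their fold changes were read from a fit without the filter, and their sizes are limited by background.

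The arrays differed in more than genotype. Rbpj itself read 470 and 497 in EC-Rbpj-KO yolk sac and 984 and 919 in wild type (log2 fold change -0.98, limma adjusted p = 0.00866), although the place of its probes relative to the deleted exons was not determined, and the Notch target Nrarp was 4.23-fold higher in EC-N1ICD (adjusted p = 0.000385, limma) and also higher, 1.68-fold, in EC-Rbpj-KO yolk sac (adjusted p = 0.0222, limma). Hey1, another Notch target, was 2.51-fold higher in EC-N1ICD (adjusted p = 0.0364, limma) and stood at 0.951-fold in the EC-Rbpj-KO comparison. Xist, the transcript of the inactive X chromosome of females, read 3600 and 3730 in EC-N1ICD, whereas EC-Rbpj-KO yolk sac read 2005 and 84, and the 4 wild type samples 77 to 96. Summed signals of 5 smooth muscle and mesenchyme markers were 18322 and 17129 in EC-N1ICD against 8975 and 10192 in wild type, with Acta2, Tagln, Cnn1 and Pdgfrb at least 1.5-fold higher and Myh11 lower. All 5 erythroid markers measured read lower in EC-N1ICD with groups apart and 0 past the threshold, beside 18.9% of all tested genes apart downward. They summed to 46233 and 75539 in EC-N1ICD against 84151 and 89471 in wild type. All 4 platelet and megakaryocyte markers also read lower there with groups apart, at 843 and 1290 against 2198 and 3032 (Pf4, 0.25-fold, passed the test at an adjusted p of 0.0216 in limma). In EC-Rbpj-KO yolk sac all 5 erythroid markers had log2 fold changes below 0, 2 of them with groups apart, beside 27.5% of all tested genes apart downward. Their sums there were 52640 and 63249 against 65184 and 64280 in wild type. The platelet and megakaryocyte markers summed to 1648 and 1149 there, against 1503 and 1348. The 4 heart markers summed to 326 and 419 in EC-N1ICD against 102 and 98 in wild type, with Myl7, Tnnt2 and Myh6 higher and Nppa at 20 and 17 against 22 and 18. The 5 macrophage markers summed to 1761 and 1283 in EC-N1ICD against 830 and 867 in wild type, and to 3204 and 2404 in EC-Rbpj-KO yolk sac against 1142 and 714 in wild type. No signal in these lists was 0. The 6 endothelial markers summed to 1453 and 1525 in EC-N1ICD against 1902 and 1294 in wild type. Cdh5 read higher there on both arrays (1.29-fold) and Emcn, below the filter, lower (0.523-fold), neither past the threshold. Pecam1, Kdr, Tek and Tie1 overlapped. In EC-Rbpj-KO yolk sac the 6 markers summed to 927 and 820 against 890 and 951 in wild type. Pecam1, Cdh5 and Tie1 read higher there on both arrays (1.43-fold, 1.26-fold and 1.59-fold). Tek read lower (0.604-fold), none of these past the threshold, and Kdr and Emcn overlapped. The 5 markers of neural tissue of the embryo summed to 538 and 484 in EC-N1ICD against 315 and 326 in wild type. In EC-Rbpj-KO yolk sac their sums were 406 and 275 against 239 and 268 in wild type. Only 1 of these markers was tested, with log2 fold changes of 0.88 and 0.55, not past the threshold. Ratios of 3' to 5' signal for Actb, a sign of RNA quality, were 1.72 and 1.75 in EC-N1ICD against 2.10 and 2.34 in wild type. They were 2.29 and 2.09 in EC-Rbpj-KO yolk sac against 1.90 and 1.84 in wild type. For Gapdh the ratio was 4.64 on EC-Rbpj-KO replicate 1 and 2.43 to 3.51 on the other 7 arrays. What part these differences had in the values of guidance genes was not tested.

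Across the families few members passed the test. In EC-N1ICD none of the 27 tested members passed the threshold of an adjusted p under 0.05 (limma), beside 0.596% of all tested genes (0.376% higher and 0.22% lower), and 2 members lay higher and 1 lower at an unadjusted p under 0.05, beside 6.52% and 5.47% of all tested genes, 12% in all. In EC-Rbpj-KO 1 member rose, Sema3b, and none fell, a share of 3.7% beside 4.96% of all tested genes, 2% that rose and 2.96% that fell. There, 3 members lay higher and 0 lower at an unadjusted p under 0.05, beside 19.9% of all tested genes. The difference between the models themselves, the EC-N1ICD change minus the EC-Rbpj-KO change, passed the threshold for 0 members in limma, beside 0.266% of all tested genes (at an unadjusted p under 0.05, 1 member, Sema3b, beside 10.8% of all tested genes).

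Most log2 fold changes of the tested members were small. In EC-N1ICD they ran from -0.94 for Plxnc1 to 1.20 for Unc5c with a median of 0.07, against a median of 0.01 over all tested genes. In EC-Rbpj-KO they ran from -0.41 for Sema4g to 1.14 for Sema3b with a median of 0.06, against -0.02 over all tested genes. Read array by array against the mean of its wild type, the median tested member was at 0.09 for both EC-N1ICD samples and at 0.21 and 0.16 for EC-Rbpj-KO samples, while the median of all tested genes lay between -0.04 and 0.04 on these 4 arrays. The 95% interval of a member's log2 fold change had a median half-width of 0.52. It stayed inside a 2-fold change in either direction for 22 of 27 members in EC-N1ICD, the others being Plxnc1, Slit2, Sema7a, Unc5a and Unc5c. In EC-Rbpj-KO it did so for 19 of 27, the others being Sema3b, Sema4c, Sema6b, Plxnc1, Plxnd1, Robo4, Unc5a and Unc5c.

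**Figure D1:**
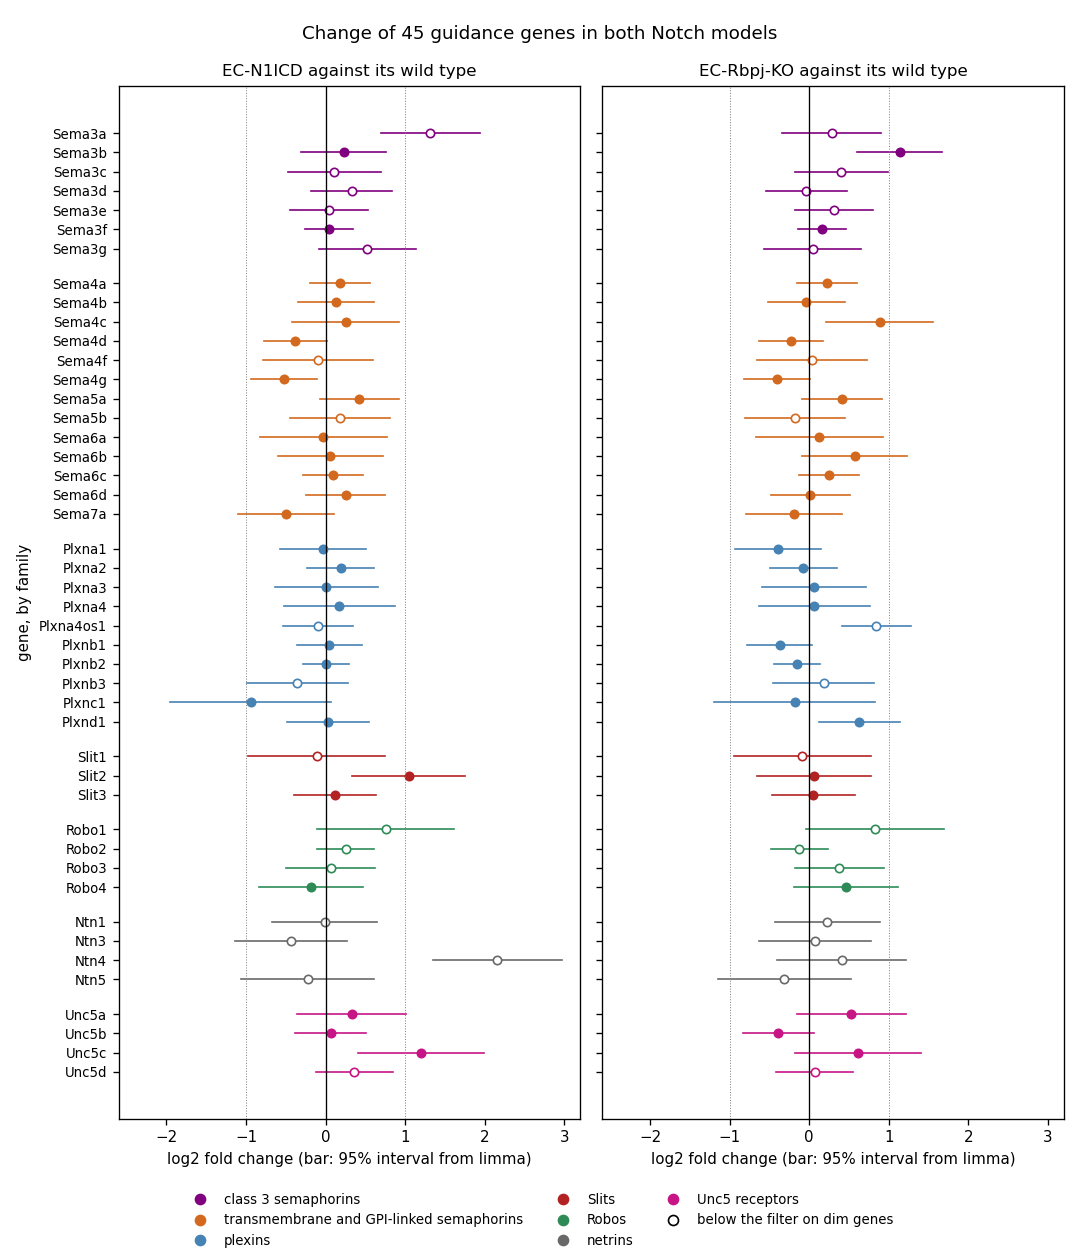
The log2 fold change (x axis) of each of the 45 guidance genes (y axis, by family) in EC-N1ICD (left) and EC-Rbpj-KO (right) against the wild type of the same set, with the 95% interval from limma as a bar; open points are the 18 genes below the filter. Most intervals cross 0, and the points farthest to the right are Ntn4, Sema3a, Unc5c and Slit2 in EC-N1ICD and Sema3b in EC-Rbpj-KO.

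By a rule of size, a difference of 1.5-fold or more in which no mutant array overlapped a wild type array of its set, Slit2 and Unc5c were higher and Plxnc1 was lower in EC-N1ICD among the tested members. Over all tested genes 3.52% met that rule upward and 2.63% downward. Unc5c was above the filter, and so tested, only with its high EC-N1ICD signals counted in its mean. Counting members under the filter added Ntn4, Sema3a and Robo1, all higher, making 5 of 45 beside 4.52% of all genes, while Plxnc1 stayed the 1 lower member beside 2.69%. In EC-Rbpj-KO, Sema3b, Sema4c, Plxnd1 and Unc5c were higher by the same rule and 0 members were lower, beside 5.11% and 5.83% of all tested genes, and Plxna4os1 was the 1 addition below the filter, beside 5.77% of all genes higher and 4.3% lower. These 10 genes are given array by array below. By order of arrays alone, 7 tested members were higher in EC-N1ICD with no overlap and 5 were lower, beside 23.7% and 18.9% of all tested genes, and 11 were higher and 6 lower in EC-Rbpj-KO, beside 23.3% and 27.5%. Sema3b, Sema5a, Sema6c and Unc5c were higher and Sema4d and Sema4g lower in this way in both models, 4 and 2 of 27 members beside 8.33% and 7.95% of all tested genes.

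Upstream DNA is shown for the 4 members that were over 2-fold higher in EC-N1ICD, as the stretch that ends at each gene's annotated start. RefSeq promoters of build GRCm38.p6 were matched for 36 of the 45 genes, which have 49 annotated starts. Each sequence below holds the 250 bases before the start, 5' to 3' on the strand of the gene, here the plus strand for all 4, and is in lower case throughout because the letters GTGGGAA, the core bound by RBPJ, were found in none of them on either strand.
Ntn4, chr10:93640799-93641048: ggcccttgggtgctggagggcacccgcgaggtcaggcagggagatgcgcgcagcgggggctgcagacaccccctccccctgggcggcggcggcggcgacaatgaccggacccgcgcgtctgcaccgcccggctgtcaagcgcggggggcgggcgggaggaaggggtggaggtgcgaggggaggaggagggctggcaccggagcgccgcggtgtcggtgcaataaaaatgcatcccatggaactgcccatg
Slit2, chr5:47982905-47983154: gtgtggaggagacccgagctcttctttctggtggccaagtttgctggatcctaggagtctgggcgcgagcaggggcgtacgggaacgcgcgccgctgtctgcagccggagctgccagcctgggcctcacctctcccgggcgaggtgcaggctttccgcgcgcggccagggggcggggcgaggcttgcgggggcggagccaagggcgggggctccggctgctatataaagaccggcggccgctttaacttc
Unc5c, chr3:141465314-141465563: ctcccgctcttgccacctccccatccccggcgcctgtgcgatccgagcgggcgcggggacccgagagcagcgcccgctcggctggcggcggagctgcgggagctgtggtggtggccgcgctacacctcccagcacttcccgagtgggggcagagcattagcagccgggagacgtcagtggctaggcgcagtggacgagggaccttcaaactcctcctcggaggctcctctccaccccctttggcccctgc
Sema3a, chr5:13396534-13396783: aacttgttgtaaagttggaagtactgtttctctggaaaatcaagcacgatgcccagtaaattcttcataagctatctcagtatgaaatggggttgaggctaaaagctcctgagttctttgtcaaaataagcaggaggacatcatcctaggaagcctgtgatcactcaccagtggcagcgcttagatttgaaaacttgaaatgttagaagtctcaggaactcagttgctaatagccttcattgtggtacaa

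The sequences of Ntn4, Slit2 and Unc5c were rich in G and C, at 73.2%, 69.6% and 71.2%, with 26, 25 and 23 CpG dinucleotides. That of Sema3a was not, at 40.8% with 2 CpG dinucleotides. The median over all 32851 promoters was 52.4% with 6. In windows that also take in 50 bases after the start, GTGGGAA was found on either strand in 2 of the 49 member promoters (4.08%), against 6.38% of all promoters, and CACGTG, an E-box bound by Hey and Myc type factors, in 4 (8.16%; Robo2, Sema3e, Sema4b and Sema6d) against 7.15%. The motifs were searched separately, can share their letters GTG, and were found together in none of the member promoters. Both GTGGGAA matches are shown with flanking bases, the match in capitals.
Ntn4, chr10:93641075-93641098, plus strand: gccacagaagGTGGGAAaagcgga
Plxnb2, chr15:89180863-89180889, minus strand: ccgcccctccTTCCCACcctctacccc

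The Ntn4 match lies on the strand of the gene and begins at base 37, counted from the start as base 1, and the Plxnb2 match on the opposite strand, 91 bases before the start. Such matches are descriptions of letters. Plxnb2, a receptor of class 4 semaphorins, read 2034 and 2423 in EC-N1ICD against 2318 and 2116 in wild type, and 3334 and 3536 in EC-Rbpj-KO yolk sac against 3630 and 3988 in wild type.

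Class 3 semaphorins are secreted ligands, and in EC-Rbpj-KO Sema3b was the member that rose. Its signals were 527 and 319 in EC-Rbpj-KO yolk sac against 194 and 179 in wild type. Both mutant arrays lay above both wild type arrays, and replicate 1 lay far above replicate 2. limma gave a log2 fold change of 1.14 ± 0.24 (SE, n = 2 per group), 2.20-fold, with an adjusted p of 0.0224. In EC-N1ICD its signals were 171 and 147 against 139 and 132 in wild type (log2 fold change 0.23, adjusted p = 0.806, limma), with the groups close but apart. The difference between the models, -0.91 on the log2 scale, had a limma adjusted p of 0.358. The 4 mesothelium markers summed to 3354 on EC-Rbpj-KO replicate 1, against 2148 on replicate 2 and 2296 and 2145 in wild type. Their part in the Sema3b value was not tested. Replicate 1 of EC-Rbpj-KO was also the array with Xist, with the higher macrophage sum of the pair and with the highest Gapdh ratio. Without it the log2 fold change was 0.78 (adjusted p = 0.0892, limma), and the call was also lost without either wild type array of the set, with values of 1.20 (adjusted p = 0.0920) and 1.08 (adjusted p = 0.161).

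The other probe sets of Sema3b ran the same way in EC-Rbpj-KO but not in EC-N1ICD. The second brightest had 167 and 122 in EC-Rbpj-KO yolk sac against 62 and 91 in wild type, 1.90-fold, and the dimmest had 61 and 63 against 51 and 44, 1.31-fold. In EC-N1ICD the second brightest had 72 and 92 against 38 and 32, 2.33-fold, and the dimmest 41 and 53 against 53 and 44, 0.965-fold. The probe set used thus stood at 1.17-fold in EC-N1ICD between a sister that was higher and one that overlapped.

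Sema3b lies on chromosome 9 near Sema3f, with Gnai2, Slc38a3 and Gnat1 between them in the annotation. None of these neighbours passed the test in EC-Rbpj-KO. Sema3f, a ligand that uses Nrp2, had 1971 and 2166 in EC-Rbpj-KO yolk sac against 1814 and 1875 in wild type (log2 fold change 0.16, limma adjusted p = 0.552). The probes of its probe set can cross-hybridise, as the _x_ in its name marks. Gnai2 was at 0.18 (adjusted p = 0.543, limma) and Slc38a3 at 0.31 (adjusted p = 0.517, limma), and Gnat1 lay below the filter.

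Sema3a, a repellent for axons and endothelial cells that acts through Nrp1, was below the filter. Its signals were 41 and 58 in EC-N1ICD against 24 and 16 in wild type. Both EC-N1ICD arrays were higher, yet only 1 of them reached the median of its array. On the log2 scale the difference was 1.32 ± 0.28 (SE, n = 2 per group), 2.49-fold, with a limma adjusted p of 0.0854 without the filter. Its 2 other probe sets stood at 1.04-fold each. In EC-Rbpj-KO it had 20 and 24 against 19 and 17 in wild type. Sema3g, an endothelial ligand of Nrp2, had 107 and 90 in EC-N1ICD against 74 and 63 in wild type (log2 fold change 0.52, adjusted p = 0.579, limma). Sema3c, Sema3d and Sema3e, the Plxnd1 ligand, had signals of 12 to 28, under the median of every array.

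Transmembrane and GPI-linked semaphorins act at cell contacts, and none of the 11 tested ones passed the threshold in either model. Sema4c, a ligand of Plxnb2, had 206 and 162 in EC-Rbpj-KO yolk sac against 102 and 96 in wild type, with the groups well apart. The difference amounted to 0.88 ± 0.31 on the log2 scale (SE, n = 2 per group), 1.85-fold, with a limma adjusted p of 0.132. In EC-N1ICD the wild type arrays were far from each other, with 164 and 149 in EC-N1ICD against 187 and 92 in wild type.

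Sema4g lay lower in both models. Its signals were 152 and 164 in EC-N1ICD against 232 and 222 in wild type, and 720 and 970 in EC-Rbpj-KO yolk sac against 1197 and 1028 in wild type. The groups did not overlap in either set. The folds were 0.696 (adjusted p = 0.271) and 0.753 (adjusted p = 0.258) in limma. Sema4d, the ligand of Plxnb1, ran the same way, with 237 and 249 in EC-N1ICD against 351 and 284 in wild type and 300 and 295 in EC-Rbpj-KO yolk sac against 328 and 372 in wild type. Sema5a lay higher in both, with 173 and 170 in EC-N1ICD against 154 and 106 in wild type and 278 and 241 in EC-Rbpj-KO yolk sac against 212 and 179 in wild type (log2 fold changes of 0.42 and 0.41, adjusted p = 0.516 and 0.344 in limma). The 2 sets of arrays share no sample. Sema7a, the GPI-linked ligand of Plxnc1 and integrins, had 109 and 71 in EC-N1ICD against 118 and 131 in wild type (log2 fold change -0.50, limma adjusted p = 0.537).

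The remaining members of this class, Sema4a, Sema4b, Sema6a, Sema6b, Sema6c and Sema6d, had log2 fold changes of -0.03 to 0.26 in EC-N1ICD and of -0.04 to 0.57 in EC-Rbpj-KO. The highest of these was Sema6b, with 109 and 101 in EC-Rbpj-KO yolk sac against 60 and 83 in wild type (limma adjusted p = 0.319). Its mean signal of 69 was above the filter only with those EC-Rbpj-KO arrays counted in. Sema4f and Sema5b were below the filter and overlapped between groups in both sets.

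Plexins are the receptors of semaphorins, and none of the 8 tested ones passed the threshold in either model. Plxnc1, the receptor of Sema7a, had 125 and 106 in EC-N1ICD against 237 and 206 in wild type, with every mutant array at a lower level than every wild type array. The fold was 0.521 (log2 fold change -0.94, 95% interval -1.95 to 0.07, adjusted p = 0.460, limma). A second probe set had 30 and 38 against 77 and 82, 0.425-fold, and 3 of the 4 dim ones had folds under 1 as well. In EC-Rbpj-KO the arrays of a genotype were too far apart to separate groups, with 112 and 32 against 82 and 56 in wild type, and this spread widened the interval in both models. The erythroid and platelet markers given above also read lower on the EC-N1ICD arrays, and their part in the Plxnc1 value was not tested.

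Plxnd1, the endothelial receptor of Sema3e, had 405 and 393 in EC-Rbpj-KO yolk sac against 282 and 235 in wild type. The EC-Rbpj-KO arrays were close to each other and above both wild type arrays, 1.55-fold (log2 fold change 0.63 ± 0.23, SE, n = 2 per group, adjusted p = 0.155, limma). In EC-N1ICD it had 392 and 414 against 511 and 304 in wild type, so the wild type arrays lay on either side. The endothelial markers given above went both ways in EC-Rbpj-KO, with Pecam1, Cdh5 and Tie1 higher and Tek lower, and their part in this value was not tested.

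Plxnb1, the receptor of Sema4d, was read differently by its probe sets. The one used had 222 and 281 in EC-N1ICD against 253 and 232 in wild type, 1.03-fold, whereas the other had 137 and 135 against 88 and 72, 1.71-fold. In EC-Rbpj-KO both lay lower. The one used had 340 and 355 against 478 and 422 in wild type, 0.774-fold, and the other had 169 and 210 against 347 and 272, 0.613-fold. No test was made of the second probe set, and Plxnb1 was chosen for this description after its values were seen.

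Plxna1, Plxna2, Plxna3 and Plxna4, which signal for class 3 semaphorins together with neuropilins or for class 6 semaphorins directly, had log2 fold changes of -0.03 to 0.19 in EC-N1ICD and of -0.40 to 0.07 in EC-Rbpj-KO. Plxna1 was the lowest there, with 386 and 389 in EC-Rbpj-KO yolk sac against 573 and 454 in wild type (adjusted p = 0.401, limma). Plxna4os1 had 21 and 24 in EC-Rbpj-KO yolk sac against 13 and 12 in wild type. These are signals under the median of every array, and although the log2 fold change of 0.85 had an adjusted p of 0.0495 without the filter (limma), 14 of 16 alternatives lost that call. Without the filter 1.12% of all genes rose. Plxnb3, also below the filter, had 57 and 36 in EC-N1ICD against 58 and 58 in wild type.

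**Figure D2:**
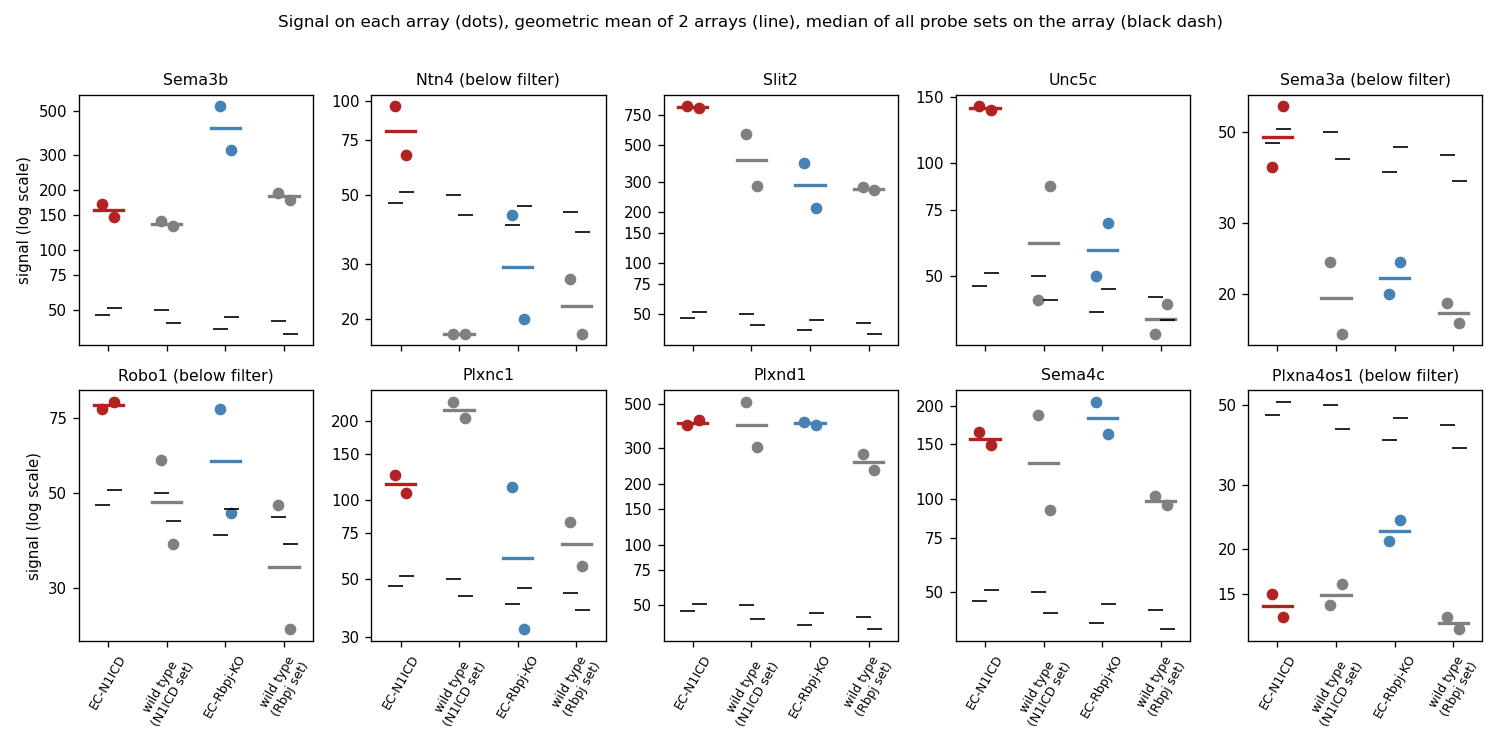
Signal on each array (y axis, log scale) of the 10 guidance genes at least 1.5-fold higher or lower with groups apart, in EC-N1ICD (red), EC-Rbpj-KO (blue) and the wild type of each set (gray); lines are geometric means of 2 arrays, and black dashes are the median of all probe sets on that array. Sema3b stands highest in EC-Rbpj-KO, Ntn4 lies above the dashes on both EC-N1ICD arrays and below them on all 4 wild type arrays, and Plxna4os1 stays under them on all 8 arrays.

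Slit2, a ligand of Robo1 and Robo2, was the Slit with the larger difference. Its signals were 845 and 824 in EC-N1ICD against 575 and 285 in wild type. Both EC-N1ICD arrays lay above both wild type arrays, which were themselves 1 high and 1 low. Its log2 fold change was 1.04, 2.06-fold, with a limma adjusted p of 0.203, and it was 0.54 without wild type replicate 2. Its other probe sets, dim throughout, stood at 1.29-fold and 1.37-fold. In EC-Rbpj-KO it had 391 and 210 against 279 and 270 in wild type, with the mutant arrays on either side. Slit3 had log2 fold changes of 0.11 and 0.05 in EC-N1ICD and EC-Rbpj-KO, and Slit1 was below the filter with overlapping groups in both sets.

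Robo4, the endothelial Robo, had 104 and 104 in EC-N1ICD against 127 and 109 in wild type and 147 and 96 in EC-Rbpj-KO yolk sac against 109 and 68 in wild type. Neither difference passed the test (log2 fold changes -0.18 and 0.46). Robo1, a Slit receptor below the filter, had 79 and 82 in EC-N1ICD against 60 and 38 in wild type, 1.69-fold (limma adjusted p = 0.572), and 79 and 45 in EC-Rbpj-KO yolk sac against 47 and 24 in wild type. Its EC-N1ICD arrays lay above both wild type arrays, whereas the EC-Rbpj-KO arrays overlapped theirs. Of its other probe sets in EC-N1ICD, 1 stood at 1.54-fold and 1 at 0.723-fold. Robo2 and Robo3 had signals of 10 to 31 on all arrays.

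Ntn4, a netrin of basement membranes, had the largest fold change of the 45 members. Its signals were 96 and 67 in EC-N1ICD against 18 and 18 in wild type. Both EC-N1ICD arrays were above the median of their arrays and both wild type arrays far below theirs. The log2 fold change was 2.16 ± 0.37 (SE, n = 2 per group, 95% interval 1.35 to 2.97), 4.46-fold, a value that rests on a wild type signal near background. The gene is below the filter on mean signal, and passed the threshold only when all 18194 genes were tested (limma, adjusted p = 0.0328), beside 0.247% of all genes that rose there. In EC-Rbpj-KO it had 43 and 20 against 27 and 18 in wild type, and these groups overlapped. The difference between the models, 1.74 on the log2 scale, had a limma adjusted p of 0.340.

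The second Ntn4 probe set did not show this difference. It had 25 and 26 in EC-N1ICD against 28 and 26 in wild type, 0.945-fold, all of them below the medians of their arrays. Outside EC-N1ICD the probe set used had 18 to 43 and the second 19 to 28, with the same mean. The brightest-probe rule thus chose between them by the EC-N1ICD signals of 96 and 67 alone. The fold change is read from those same signals, so the choice favoured a higher value. With both probe sets averaged the log2 fold change was 1.04 (limma adjusted p = 0.155). It is the 1 guidance gene the study itself names from these arrays, so its direction is no independent evidence. Ntn1, Ntn3 and Ntn5 were below the filter, with overlapping groups in both sets.

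**Figure D3:**
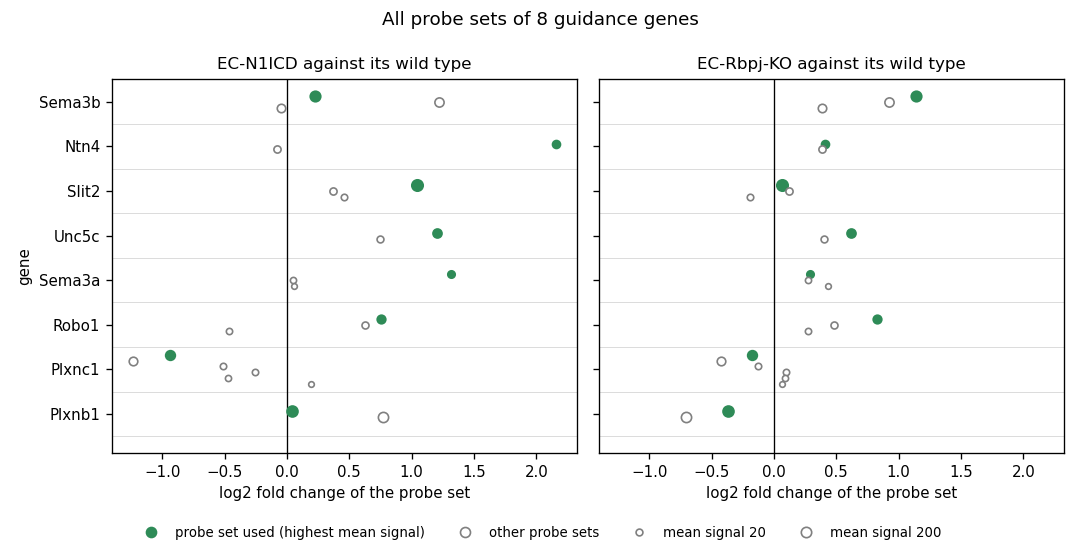
The log2 fold change (x axis) of every probe set of 8 guidance genes (y axis) in EC-N1ICD (left) and EC-Rbpj-KO (right) against wild type; filled points are the probe sets used, open points the others, and point size grows with mean signal. In EC-N1ICD the probe sets of Ntn4 (4.46-fold and 0.945-fold), Sema3a, Sema3b, Robo1, Plxnc1 and Plxnb1 lie apart from each other. In EC-Rbpj-KO all 3 of Sema3b lie above 0.

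Unc5 receptors bind netrins, and Unc5c was higher in both models. It had 142 and 139 in EC-N1ICD against 43 and 87 in wild type, and 50 and 69 in EC-Rbpj-KO yolk sac against 35 and 42 in wild type. The groups did not overlap in either set, although the wild type arrays of the first set differed from each other by more than the groups did in the second. The folds were 2.30 (log2 fold change 1.20 ± 0.36, SE, adjusted p = 0.188) and 1.53 (0.62 ± 0.36, adjusted p = 0.371) in limma, n = 2 per group. The mean signal of Unc5c, 75.9, was above the filter only with its EC-N1ICD arrays counted in. Its dim second probe set stood at 1.68-fold and 1.32-fold with overlapping groups. Unc5b, the endothelial netrin receptor, had 966 and 837 in EC-N1ICD against 1010 and 731 in wild type and 624 and 848 in EC-Rbpj-KO yolk sac against 929 and 975 in wild type (log2 fold changes 0.07 and -0.39, adjusted p = 0.948 and 0.317, limma). Unc5a had 101 and 83 in EC-Rbpj-KO yolk sac against 53 and 76 in wild type (log2 fold change 0.53, limma adjusted p = 0.375), and Unc5d was dim on all arrays.

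Beside the values of Slit2, Unc5c, Ntn4 and Sema3a in EC-N1ICD stand those of Xist and of several marker lists given above. Xist and the sums of the smooth muscle and mesenchyme, heart, macrophage and neural markers were higher on the same arrays. A fit with a term for female transcripts, which these arrays can estimate only from EC-Rbpj-KO replicate 1 against replicate 2, gave log2 fold changes of 0.15 for Slit2, 1.66 for Unc5c, 1.05 for Ntn4 (adjusted p = 0.485, limma) and 1.58 for Sema3a. The marker sums were not put into a fit, and their part in these values was not tested.

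**Figure D4:**
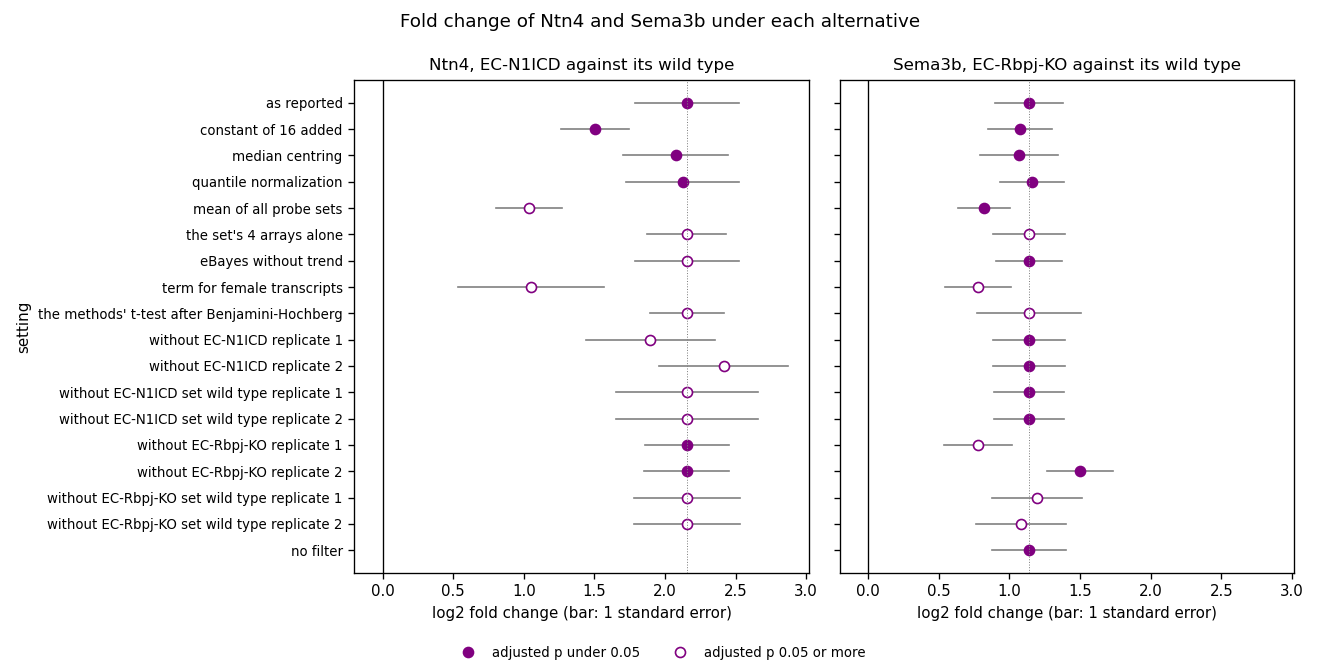
The log2 fold change (x axis, with 1 standard error) of Ntn4 in EC-N1ICD (left) and of Sema3b in EC-Rbpj-KO (right) under each way of processing (y axis); filled points have an adjusted p under 0.05. Values ran from 1.04 to 2.42 for Ntn4 and from 0.78 to 1.5 for Sema3b. Both genes were chosen with groups apart, so leaving out 1 array could not bring them below 0. Several alternatives changed only the standard error. The call was lost in 11 of 16 alternatives for Ntn4 and in 6 of 17 for Sema3b. For Sema3b, the term for female transcripts and the fit without EC-Rbpj-KO replicate 1 gave the same value.

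Co-receptors and intracellular effectors of the pathway were read from a list of 72 genes, of which 69 were on the array and 49 were tested. The list was chosen with earlier results of these data known, so its shares only describe it. In EC-N1ICD none of the 49 passed the threshold in limma (9 were higher and 0 lower at an unadjusted p under 0.05, beside 6.52% and 5.47% of all tested genes). In EC-Rbpj-KO 3 rose and none fell, 6.12% beside 2% of all tested genes that rose. There, 8 were higher and 3 lower at an unadjusted p under 0.05 in limma, beside 19.9% of all tested genes in either direction. Nrp1, the co-receptor of Sema3a and of Vegfa, had 2211 and 2025 in EC-N1ICD against 1887 and 1787 in wild type and 1601 and 1499 in EC-Rbpj-KO yolk sac against 1769 and 1415 in wild type. Nrp2 had 1050 and 1172 in EC-N1ICD against 1241 and 1026 in wild type, and 1171 and 926 in EC-Rbpj-KO yolk sac against 1222 and 1164 in wild type. These co-receptors thus differed little, with log2 fold changes of -0.20 to 0.20. Among netrin receptors, Neo1 (neogenin) had log2 fold changes of 0.28 in the EC-N1ICD model and 0.07 in the EC-Rbpj-KO model, and Dcc was below the filter with overlapping groups.

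The 3 genes that rose in EC-Rbpj-KO were Dpysl3, Crmp1 and Tyrobp. Dpysl3, a cytosolic collapsin response mediator, had 226 and 176 in EC-Rbpj-KO yolk sac against 65 and 69 in wild type, which is 1.57 on the log2 scale (limma adjusted p = 0.00311). Crmp1, a collapsin response mediator that transmits Sema3a signals, had 94 and 91 against 39 and 41 (1.21, adjusted p = 0.0274, limma). The mean signal of Crmp1, 71.75, was above the filter only with its EC-Rbpj-KO arrays counted in. In EC-N1ICD, Dpysl3 had 144 and 154 against 125 and 138 in wild type, and Crmp1 had 98 and 88 against 65 and 58, neither past the threshold. Tyrobp, an adaptor of myeloid cells that acts with plexin and Trem2 complexes, had 146 and 105 in EC-Rbpj-KO yolk sac against 54 and 49 in wild type (1.27, adjusted p = 0.0231, limma) and 150 and 120 in EC-N1ICD against 60 and 63 in wild type (1.13, adjusted p = 0.105, limma). Macrophage markers ran with it: of 4 tested, 3 rose in EC-Rbpj-KO (2% of all tested genes) and 1 in EC-N1ICD (0.376%). Their part in it was not tested.

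Rac1, a GTPase of plexin signaling, was the 1 of the 49 tested genes of the list whose change differed between the models, beside 0.266% of all tested genes. It was chosen for that reason after its values were seen. Only the brightest of its 3 probe sets was read, and no alternatives are given for it. It had 6824 and 6825 in EC-N1ICD against 3320 and 4806 in wild type, and 3822 and 4314 in EC-Rbpj-KO yolk sac against 5455 and 7143 in wild type. The log2 fold changes were 0.77 (adjusted p = 0.0761) and -0.62 (adjusted p = 0.0652), and their difference had an adjusted p of 0.0462 (limma).

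Levels also differed between the sets of arrays, where strain and set cannot be told apart. Of the 27 tested members, 9 (33.3%) had all 4 arrays of the EC-Rbpj-KO set above all 4 of the EC-N1ICD set, against 27.7% of all tested genes, and 2 (7.41%), Sema3f and Sema6c, had them below, against 11.3%. The shares are near those of all tested genes. Sema4g stood out, with 720 to 1197 in the EC-Rbpj-KO set against 152 to 232 in the EC-N1ICD set, 4.89-fold between the wild types. Plxnb1 (1.85-fold), Plxnb2 (1.72-fold), Sema4a (1.65-fold) and Sema6d (1.57-fold) followed among the wild types. Plxnc1 went the other way at 0.307-fold, with 69 on average in the wild type of the EC-Rbpj-KO set against 221.5 in that of the EC-N1ICD set, although the mutant arrays overlapped.

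**Figure D5:**
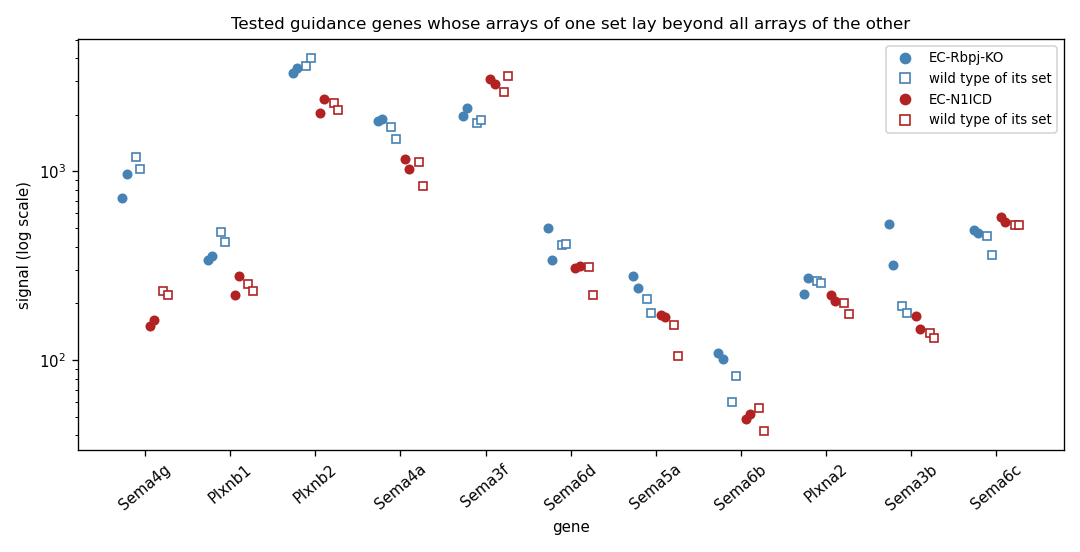
Signal on each array (y axis, log scale) of the 11 tested guidance genes (x axis) whose 4 arrays of the EC-Rbpj-KO set (blue) lay beyond all 4 of the EC-N1ICD set (red); filled circles are mutant and open squares wild type arrays. Sema4g shows the widest gap, 720 to 1197 against 152 to 232, and Sema3f and Sema6c are the 2 genes lower in the EC-Rbpj-KO set.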

How the data were processed

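The authors deposited intensity values, a linear signal for every probe set on each array, which MAS5 had summarised, as the sample descriptions state (version and scaling target not given in the sources used here). Their methods name a t-test in general, and their account of the arrays names no test. What is called the methods' t-test below is such a test applied here to 2 arrays per group. Here each gene was read from its probe set with the highest mean over 8 arrays (34958 of 45101 probe sets name 1 gene, 932 several and 9211 none, the last 2 kinds left out), and 96 probe sets read the 45 guidance genes, 31 of which have several. Signals were taken to log2 and modelled in limma 3.58.1 under R 4.3.3 (lmFit on 4 groups of 2 arrays, eBayes with trend, 4 residual and 7.37 prior degrees of freedom). Two-sided p-values were adjusted by the method of Benjamini and Hochberg over 10913 genes above the 40th percentile of mean signal, with a threshold of 0.05. The scripts were tested on simulated data.

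Groups came from genotypes and source names. Members, lists and alternatives were chosen with earlier results of these data known. Array values were given for members past the threshold or at least 1.5-fold apart with groups not overlapping, and for others named to describe a family. No source states in words that arrays held separate embryos. The EC-Rbpj-KO arrays, of which 1 has a high Xist signal and the other does not, were not repeats of 1 RNA. In the other groups the spread behind the p-values may be technical. With arrays, precision is limited by how many there are. Promoters come from RefSeq (GRCm38.p6) and were searched on both strands. Alternatives changed the scaling, the added constant, the filter, the probe set rule, the arrays, a term for female transcripts and the test.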

Additional observations from a re-analysis of the deposited data

How the results depend on the processing

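The count of guidance genes past the threshold in EC-N1ICD was 0, and became 1 without the filter (Ntn4) and 2 by the methods' t-test at an unadjusted p under 0.05 (Plxnc1 and Sema4g, beside 939 of all genes). Leaving out any 1 array left it at 0. In EC-Rbpj-KO the count was 1, and became 0 with the 4 arrays of the set alone, with a term for female transcripts, by the methods' t-test after Benjamini-Hochberg (beside 1 of all genes) and with the filter at the 60th percentile, where Sema3b was not tested. It became 2 without the filter (Sema3b and Plxna4os1) and 2 by the unadjusted t-test (Plxnd1 and Sema4c, beside 1313 of all genes). Leaving out 1 array gave 0 to 2, with 0 without EC-Rbpj-KO replicate 1 or without either wild type replicate of its set, and 2 without EC-N1ICD set wild type replicate 2, which added Sema4c (adjusted p = 0.0488, limma). For the difference between the models it was 0 under every alternative run in limma, while calls over all genes ran from 3 to 80 against 29. Over all genes, calls ran from 7 to 140 in EC-N1ICD and from 147 to 628 in EC-Rbpj-KO when 1 array was left out. In EC-N1ICD they numbered 15 with the term for female transcripts, 27 with the higher filter, 103 with its 4 arrays alone and 118 with quantile normalization, and 0 by the t-test after Benjamini-Hochberg, against 65, and in EC-Rbpj-KO 266 with its 4 arrays alone, against 541.

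Of 11 gene results, 10 kept their direction under every alternative and 5 kept their side of the threshold. These 5 were not past the threshold as reported. All 11 were chosen with groups apart, so leaving out 1 array could not turn their direction. Some alternatives, such as the t-test, changed only the error and left the fold change as it was. Robo1 in EC-N1ICD turned to -0.059 with the term for female transcripts (adjusted p = 0.985, limma). Sema3b ran from 0.78 to 1.5, with an adjusted p of 0.0637 with the set's 4 arrays alone, 0.0813 with the term for female transcripts and 0.461 by the t-test. The term for female transcripts gave it the same 0.78 as leaving out EC-Rbpj-KO replicate 1, so these are not separate alternatives for Sema3b. Sema3a passed with median centring alone (1.24, adjusted p = 0.0474, limma). Plxnc1 ran from -2.75 with the term for female transcripts to -0.54 with probe sets averaged, and Unc5c in EC-N1ICD from 0.69 to 1.71 without 1 or the other wild type array. The causes were not tested. No paired analysis was possible because replicate numbers here only name arrays in accession order. Sample names begin with a number whose meaning is not stated. In each set both wild type arrays and 1 mutant array share that first number. Replicate 1 of each mutant has a first number of its own. Without that array Sema3b was at 0.78 (adjusted p = 0.0892) and Ntn4 at 1.90 (adjusted p = 0.386) in limma. Background limits the size of every fold of genes below the filter.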
